A study of Sus scrofa with 40 samples.

Results

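Pork belly (PB) was compared with hamstring (HM) in messenger RNA from Chalu black pigs, a pork breed. The comparison took the 10 libraries titled PB and the 10 titled HM, 20 of the 40 libraries of a series that also holds longissimus dorsi (LDM) and trapezius (TM), and covered all 21280 genes of the deposited table. The hamstring is a muscle of the hind leg, and the belly is a cut of the abdominal wall, for which the labels do not name the muscle. The pigs of both groups were untreated males by 1 sire, raised together and fasted before slaughter, and muscle was cut from the left side of the carcass soon after death, with fascia avoided. Age was not given in the sources used here, and nothing says that libraries with the same number came from the same pig, so p-values measure the spread between libraries, which may in part be technical.

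Muscles of the trunk and of the limbs arise from different parts of the embryo, and their cells keep a part of that history as the activity of position genes. The best known of these are the HOX genes, transcription factors in chromosomal clusters whose order along the chromosome follows the order of the body regions in which they act. High-numbered HOX genes act at the hind end of the trunk and along the limb, and low-numbered ones further forward. Muscles also differ in their mix of slow, oxidative fibres and fast, glycolytic fibres, in vessels, in connective tissue and in fat, and these features bear on meat quality.

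Totals ran from 12305913 to 15907082 counts in PB and from 13301341 to 17122790 in HM. By correlation with the mean of each cut, 10 of 10 PB and 8 of 10 HM libraries lay nearest to their own cut, while HM6 lay nearest to TM and HM9 nearest to LDM. PB1 is titled as belly but carries the longissimus in its tissue field, and stayed in PB, the cut whose mean it resembled most. Markers of muscle fibres, used to check the tissue labels, were abundant in both cuts. Skeletal actin ACTA1 ranged from 52808 to 90600.4 CPM in PB (median 72384) and from 40435 to 75519.5 CPM in HM (median 62543), and muscle creatine kinase CKM ranged from 24586 to 40309 CPM in PB (median 31797) and from 19815 to 52215 CPM in HM (median 26857), so the groups overlapped in both. Neither passed between the cuts, at log2 changes of 0.21 ± 0.16 (adjusted p = 0.344) and 0.15 ± 0.16 (adjusted p = 0.512). Here CPM is a gene's count scaled to a common library total (with TMM factors, so that libraries can be compared but not genes of different length), a log2 change is PB minus HM with its standard error (SE), and a gene passed at a Benjamini-Hochberg adjusted p under 0.05 by the quasi-likelihood test of edgeR over all genes tested.

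Of 11713 genes tested, 3232 passed (27.6% of those tested), 1583 higher in PB (13.5%) and 1649 lower (14.1%). Changes of at least 2-fold were more often upward in belly, with 603 genes higher (5.15%) and 305 lower (2.6%). The highest level of the 10 HM libraries lay below the lowest of PB for 336 genes (2.87%), of which 247 passed by 2-fold, and the reverse held for 27 (0.231%), of which 12 passed by 2-fold, 3.1% in either direction. Changes were ranked among genes with a symbol and a mean of at least 1 CPM in the higher cut. Each also passed, and kept its call when any 1 library was left out. By this ranking the 4 lowest log2 changes were those of HOX genes. The 3 highest were those of the position factors IRX3, SIM1 and IRX5. Other large changes were those of MYLK4 and SLC6A6, lower in belly, and of GOLGA4, PPP1R3A and XIRP2, higher. The split of calls depended on 2 hamstring libraries, on the scaling and on the libraries fitted. Of the called genes 49.0% were higher in PB, against 66.2% without HM6 and HM9 (2066 higher and 1053 lower). The share was 63.1% with mitochondrially encoded genes out of the scaling (1944 and 1136). With the PB and HM libraries fitted alone it was 58.3% (1601 and 1146), and 205 genes were lower by 2-fold or more. The median log2 change over all genes tested was -0.05, and 0.06 without HM6 and HM9.

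**Figure D1:**
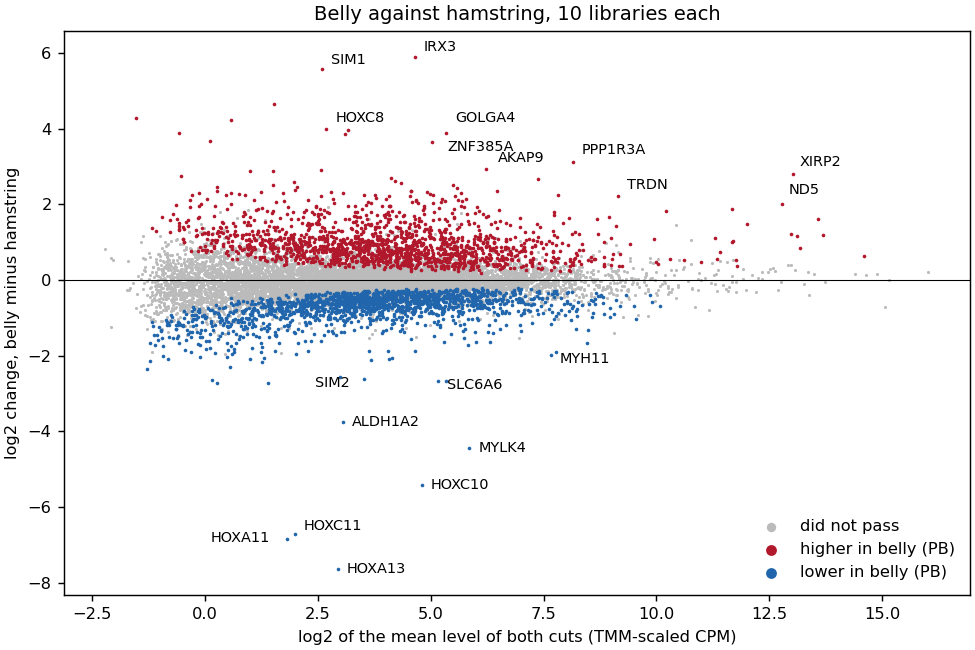
Log2 change of PB minus HM (vertical axis) against the log2 of the mean level of both cuts (horizontal axis, TMM-scaled CPM), 1 point for each of the 11713 genes tested, red for the 1583 that passed higher in belly and blue for the 1649 that passed lower. Of the ranked genes with a symbol, the lowest are HOXA13 (-7.64), HOXA11, HOXC11 and HOXC10, and the highest are IRX3 (5.89) and SIM1 (5.56).

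High-numbered HOX genes of the A and C clusters were expressed in hamstring and nearly silent in belly, and mid-numbered HOXC genes were higher in belly. HOXA13, which acts at the far end of the limb and of the trunk (ENSSSCG00000029666, chromosome 18 from 45373440 to 45380300), ranged from 7.20 to 26.9 CPM in HM (median 14.3) and from 0 to 0.386 CPM in PB (median 0), where 6 of 10 PB libraries had no count. The groups did not overlap, and the log2 change was -7.64 ± 0.48 (adjusted p = 1.75e-10). HOXA11, which acts in the middle segment of the limb, ranged from 4.07 to 8.93 CPM in HM (median 6.79) and had a count in 1 of 10 PB libraries, PB10, at 0.540 CPM. Its log2 change was -6.83 ± 0.56 (adjusted p = 7.21e-12). HOXC11, of the same number in the C cluster, ranged from 3.80 to 11.8 CPM in HM (median 7.39) and from 0 to 0.285 CPM in PB (median 0), a log2 change of -6.70 ± 0.64 (adjusted p = 6.09e-10). HOXC10, which acts in the hind limb and lower trunk, ranged from 33.6 to 78.8 CPM in HM (median 57.7) and from 0 to 3.26 CPM in PB (median 0.706), a log2 change of -5.42 ± 0.70 (adjusted p = 3.88e-07). All 4 genes were separated in all libraries of both cuts, HM6 and HM9 included. PB held 7 to 165 counts of each of these 4 genes over its 10 libraries, and HM 1075 to 8345, so they passed the filter on low counts through HM and their number is no result of its own.

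The other 8 high-numbered HOX genes matched in the table (groups 10 to 13) did not pass or were too low to test with the filter on low counts. HOXB13, HOXC12 and HOXD12 had no count in either cut, and HOXC13 had 1, in HM. The high-numbered genes of the D cluster were barely expressed: HOXD10 had 11 counts over PB and 48 over HM, HOXD11 3 and 43, and HOXD13 0 and 19, at least 6.04-fold higher in HM if 3 counts are taken as the floor of PB. That bound covers counting error only. In the edgeR fit without a filter, HOXD11 and HOXD13 passed lower in PB, at -3.15 (adjusted p = 0.0492) and -4.04 (adjusted p = 0.00617). HOXD10 did not pass there, at -1.73 (adjusted p = 0.243). HOXA10, the eighth, depended on the library.

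HOXA9 and HOXA10 split the belly libraries. In PB1 to PB8, HOXA10 ranged from 0 to 0.0820 CPM, 2 counts in all, whereas PB9 stood at 27.8 CPM and PB10 at 36.3, above the HM median of 19.8 (range 6.86 to 28.9). HOXA9 stood at 0 to 1.03 CPM in PB1 to PB8, at 150 in PB9 and at 78.4 in PB10, and at 19.3 to 59.8 in HM. So 8 belly libraries lay below all hamstring libraries and 2 lay among or above them, a split noticed after the values were seen. HOXA7 followed the same order, at 0.705 to 3.58 CPM in PB1 to PB8, 23.0 in PB9, 17.9 in PB10 and 5.59 to 11.05 in HM. None of the 3 passed between the cuts, at log2 changes of -0.60 ± 0.47 (adjusted p = 0.359) for HOXA7, -0.81 ± 0.92 (adjusted p = 0.548) for HOXA9 and -1.53 ± 0.95 (adjusted p = 0.236) for HOXA10. With limma-voom and sample quality weights HOXA10 stood at -6.73 (adjusted p = 5.02e-08). HOXC8 and HOXC9 were lowest in these 2 of the belly libraries: HOXC8 stood at 0.512 CPM in PB9 and 3.47 in PB10 against 4.50 to 24.8 in the other 8, and HOXC9 at 0.438 and 1.23 against at least 1.498. The other HOXC genes did not follow this in PB10, which was the highest belly library in HOXC4 (2.70 CPM) and stood above PB5 in HOXC5 (1.46 against 1.06) and HOXC6 (5.01 against 3.88). Where on the belly each piece was cut was not given in the sources used here.

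**Figure D2:**
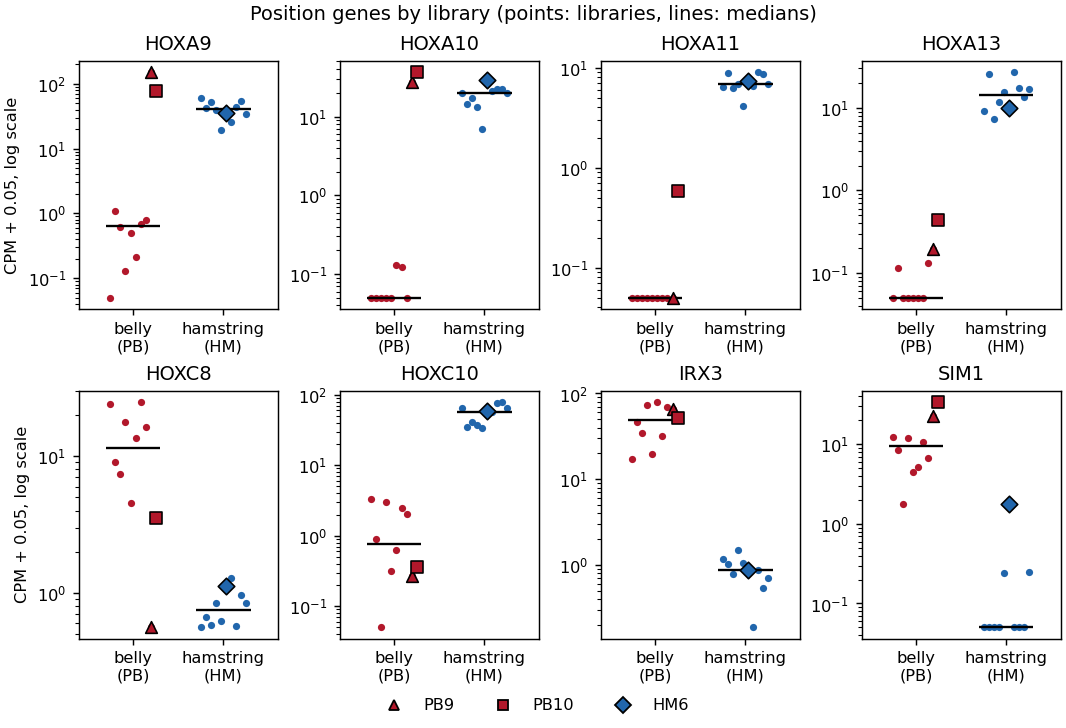
Level of 8 position genes in each library (CPM plus 0.05, log scale, red for PB and blue for HM, black lines at the medians), with PB9, PB10 and HM6 drawn as a triangle, a square and a diamond. HOXA11, HOXA13 and HOXC10 separate the cuts in all libraries, HOXA9 and HOXA10 are high in PB9 and PB10 but low in PB1 to PB8, and IRX3 and SIM1 are higher in every PB library than in any HM library.

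Mid-numbered genes of the HOXC cluster, which act in the trunk, were higher in belly. HOXC5 ranged from 0.512 to 9.12 CPM in PB (median 2.41) and from 0 to 0.561 CPM in HM (median 0.0743), a log2 change of 4.22 ± 0.66 (adjusted p = 1.01e-05). HOXC6 ranged from 1.75 to 22.9 CPM in PB (median 8.97) and from 0.486 to 3.27 CPM in HM (median 1.28), a log2 change of 2.91 ± 0.50 (adjusted p = 3.54e-05). HOXC8 ranged from 0.512 to 24.8 CPM in PB (median 11.4) and from 0.519 to 1.23 CPM in HM (median 0.707), a log2 change of 3.97 ± 0.60 (adjusted p = 5.06e-06). For each of the 3 the ranges overlapped only through PB9. HOXC4 and HOXC9, which bracket them, did not pass, at 0.41 ± 0.42 (adjusted p = 0.496) and 0.61 ± 0.50 (adjusted p = 0.383), so along this cluster the change ran from higher in belly at groups 5, 6 and 8 to lower in belly at groups 10 and 11. The B cluster gave no call among its 5 tested genes, with log2 changes from -0.70 for HOXB7 to 0.23 for HOXB2, nor did the D cluster among 5 tested, from -0.37 for HOXD4 to 0.98 for HOXD8. HOXB9, with 30 counts over PB and 130 over HM, was too low for the filter on low counts. In the edgeR fit without a filter it passed lower in PB, at -1.77 (adjusted p = 0.0138). HOXA4 and HOXA5 passed by less than 2-fold, higher by 0.80 and lower by 0.72, and kept their calls in 16 and 6 of the 20 fits that leave out 1 library.

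**Figure D3:**
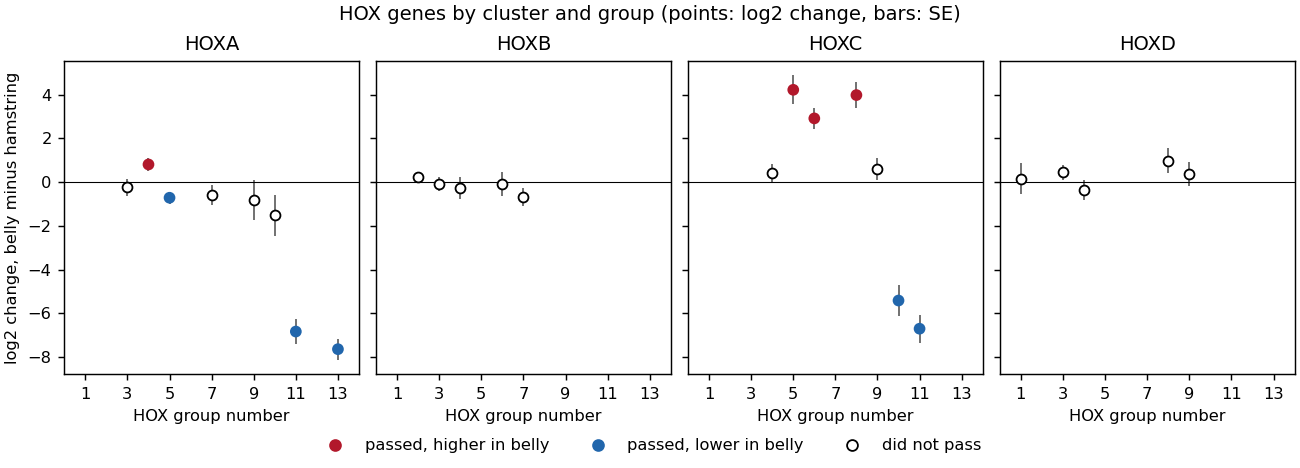
Log2 change of PB minus HM with its SE for the tested HOX genes, 1 panel per cluster and the group number on the horizontal axis, filled where the gene passed. In the HOXC cluster groups 5, 6 and 8 lie above 0 (2.91 to 4.22) and groups 10 and 11 below (-5.42 and -6.70), while no tested HOXB or HOXD gene passed.

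TBX4, the T-box factor that marks the hind limb, had no count in any of the 10 PB libraries and 165 counts in HM, at 0.466 to 1.68 CPM with a count in all 10. With 3 counts as the floor of PB, it was at least 52.5-fold higher in HM. It was too low for the filter on low counts, and passed in the edgeR fit without a filter (adjusted p = 8.71e-08). PITX1, a homeobox factor of the hind limb that acts before TBX4, did not follow it: 3 belly libraries stood at 3.49 (PB3), 4.75 (PB9) and 7.05 CPM (PB5), the other 7 at 0 to 0.570, and HM at 0 to 1.43. It was not tested with the filter, and without a filter was higher in PB at 2.63 (adjusted p = 0.0284).

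Among other position factors, IRX3, SIM1 and IRX5 were the most raised in belly relative to hamstring. IRX3 (ENSSSCG00000002831, chromosome 6 from 31046098 to 31048822), an Iroquois homeobox factor of body patterning, ranged from 16.9 to 79.4 CPM in PB (median 49.6) and from 0.137 to 1.45 CPM in HM (median 0.817). No library overlapped, and the log2 change was 5.89 ± 0.69 (adjusted p = 6.56e-08). Trapezius, at a mean of 76.1 CPM, was not below belly in this gene, and longissimus stood at 7.44. SIM1 (ENSSSCG00000004357, chromosome 1 from 67214337 to 67294397), a bHLH-PAS factor found in muscle precursors, ranged from 1.75 to 33.9 CPM in PB (median 9.50) and had no count in 7 of 10 HM libraries. The highest HM library was HM6, at 1.73 CPM, just under the lowest of PB, and the log2 change was 5.56 ± 0.74 (adjusted p = 6.91e-07). PB9 and PB10 were the highest belly libraries in SIM1, at 22.9 and 33.9 CPM. IRX5, the neighbour of IRX3 on chromosome 6, ranged from 0.326 to 12.1 CPM in PB (median 4.94) and from 0 to 0.593 CPM in HM (median 0.149), overlapping only through PB1, a log2 change of 4.64 ± 0.66 (adjusted p = 2.21e-06).

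The opposite direction held for SIM2 and for ALDH1A2. SIM2, the relative of SIM1, ranged from 0 to 36.8 CPM in HM (median 22.7) and from 0.244 to 19.5 CPM in PB (median 0.611), a log2 change of -2.63 ± 0.80 (adjusted p = 0.0124). The groups overlapped at both ends: PB10 stood at 19.5 CPM, the other belly libraries at no more than 3.84, and HM6 had no count. ALDH1A2, an enzyme that makes retinoic acid, a patterning signal, ranged from 6.62 to 34.6 CPM in HM (median 13.9) and from 0 to 3.01 CPM in PB (median 1.153). The 2 groups did not overlap, and the log2 change was -3.76 ± 0.44 (adjusted p = 6.56e-08). Of 66 position factors matched outside the HOX clusters, 37 were tested. Of these 8 were higher in PB (21.6% beside 13.5% of all genes) and 6 lower (16.2% beside 14.1%). Their median log2 change was -0.13 beside -0.05 over all genes tested. The HOX cofactors MEIS1 and MEIS2 were among the higher ones, at 1.95 ± 0.47 (adjusted p = 0.0018) and 2.23 ± 0.39 (adjusted p = 3.99e-05). The lower ones included SHOX2, a limb bone factor, at -1.31 ± 0.34 (adjusted p = 0.00325) and TBX2 at -0.74 ± 0.22 (adjusted p = 0.0101). MEIS1, SHOX2 and TBX2 were named after their values were seen.

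Each cut was also set beside the mean of LDM and TM, in comparisons that share libraries with each other and with the one above. The high-numbered HOX genes were higher in hamstring: HOXA11 was at 7.73 (adjusted p = 1.66e-16) in HM and 0.89 (adjusted p = 0.361) in PB, HOXC11 at 6.81 (adjusted p = 1.12e-13) and 0.11 (adjusted p = 0.866), and HOXC10, with a mean of 28.7 CPM in LDM, at 4.06 (adjusted p = 1.58e-06) and -1.35 (adjusted p = 0.0896). HOXA13 and HOXA10 were also higher in PB than this mean, but on few counts or few libraries. HOXA13 stood at 3.21 (adjusted p = 0.00428) in PB and 10.85 (adjusted p = 1.12e-13) in HM. Its PB value rests on 9 counts over 10 libraries, 6 of them without a count, beside a mean of 0 CPM in LDM and in TM. HOXA10, which in PB comes from PB9 and PB10, stood at 5.24 (adjusted p = 0.000575) and 6.77 (adjusted p = 0.000146). IRX3, HOXC6 and HOXC8 passed in hamstring, where they were lower, and not in belly, at -4.85 (adjusted p = 4.32e-06), -3.62 (adjusted p = 4.32e-06) and -4.32 (adjusted p = 4.32e-06) in HM, and at 1.05 (adjusted p = 0.0659), -0.72 (adjusted p = 0.154) and -0.34 (adjusted p = 0.562) in PB. SIM1 moved in both, at 3.35 (adjusted p = 2.22e-06) in PB and -2.21 (adjusted p = 0.0306) in HM. ALDH1A2 also moved in both, at -1.86 (adjusted p = 0.000324) in PB and 1.90 (adjusted p = 0.000191) in HM. Of all genes tested, 18.2% were higher and 16.6% lower in PB than this mean, and 6.85% higher and 7.28% lower in HM.

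ZNF385A, a zinc finger protein that binds RNA and whose gene lies on chromosome 5 beyond the HOXC cluster (from 19560317 to 19583221, with HOXC4 from 19265081), was higher in belly with HOXC5 to HOXC8. It ranged from 17.3 to 114 CPM in PB (median 53.0) and from 1.40 to 8.42 CPM in HM (median 4.98), with no overlap, a log2 change of 3.65 ± 0.44 (adjusted p = 9.58e-08). By correlation of log2 CPM over the 20 libraries, it was among the 3 genes most like IRX3 (r = 0.94), with NBN (0.96) and TPR (0.94). The 3 most like SIM1 were IFT74 (0.95), GOLGB1 (0.93) and CCAR1 (0.92). The 3 most like HOXA13 were HOXA11 (0.99), HOXC11 (0.96) and HOXC10 (0.91), which were also, with HOXA13, the 3 most like HOXA11. These are descriptions: all of these genes differ between the cuts, and that difference is a part of each value.

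Among the 15 highest log2 changes, in the ranking of genes with a symbol described above, were GOLGA4, AKAP9 and CEP290. These genes encode large proteins of the Golgi, the centrosome and the cilium. GOLGA4 (ENSSSCG00000011243, chromosome 13 from 22125121 to 22250466), a coiled-coil protein of the Golgi membrane, ranged from 52.8 to 99.8 CPM in PB (median 73.4) and from 2.42 to 10.9 CPM in HM (median 4.11). All belly libraries stood far above all of hamstring, and the log2 change was 3.88 ± 0.29 (adjusted p = 9.8e-13). AKAP9, which anchors protein kinase A at the Golgi and centrosome, ranged from 80.3 to 201 CPM in PB (median 123) and from 7.44 to 32.4 CPM in HM (median 16.4), a log2 change of 2.93 ± 0.31 (adjusted p = 5.84e-09). CEP290, a protein of the base of the cilium, ranged from 3.38 to 6.43 CPM in PB (median 5.40) and from 0.198 to 1.38 CPM in HM (median 0.633), a log2 change of 2.89 ± 0.35 (adjusted p = 9.76e-08). None of the 3 overlapped between the cuts. The genes picked for their likeness to IRX3 or SIM1 were by that choice higher in belly, and their values are a description: the Golgi tether GOLGB1 stood at 2.03 ± 0.18 (adjusted p = 1.07e-10), the nuclear pore protein TPR at 2.31 ± 0.19 (adjusted p = 7.21e-12), the cilium transport protein IFT74 at 2.23 ± 0.30 (adjusted p = 7.9e-07), the DNA repair protein NBN at 1.80 ± 0.20 (adjusted p = 1.39e-08) and the transcription coactivator CCAR1 at 1.68 ± 0.21 (adjusted p = 2.07e-07). The smallest adjusted p-value of the whole table belonged to a gene model with no symbol, ENSSSCG00000034846, named after its values were seen, at 17.0 ± 4.42 CPM in PB and 1.08 ± 0.568 in HM (SD, n = 10 each) and a log2 change of 3.97 ± 0.26 (adjusted p = 2.52e-14 by edgeR).

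GOLGA4, AKAP9, CEP290 and TPR were higher in PB than in the other cuts too. GOLGA4 was 3.90 (adjusted p = 8.2e-17) in PB and 0.02 (adjusted p = 0.973) in HM against the mean of LDM and TM, AKAP9 2.64 (adjusted p = 3.65e-11) and -0.29 (adjusted p = 0.462), CEP290 3.03 (adjusted p = 3.84e-11) and 0.14 (adjusted p = 0.794), and TPR 2.34 (adjusted p = 1.93e-15) and 0.03 (adjusted p = 0.909). Transcript length moved with this pattern. The 336 genes with all PB libraries above all HM libraries had a median length of 6815.5 bases beside 4534 over all genes tested and 4860 for the 27 in the other direction. In the longest 25% of the genes 21.3% were higher in PB and 14.2% lower, in the shortest 7.75% and 12.3%, with median log2 changes of 0.02 and -0.09. With the trend on gene length taken out of each library, GOLGA4 stood at 3.83, AKAP9 at 2.74, CEP290 at 2.81 and TPR at 2.26, and 1767 genes were higher and 1439 lower. RNA integrity values were not given in the sources used here.

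**Figure D4:**
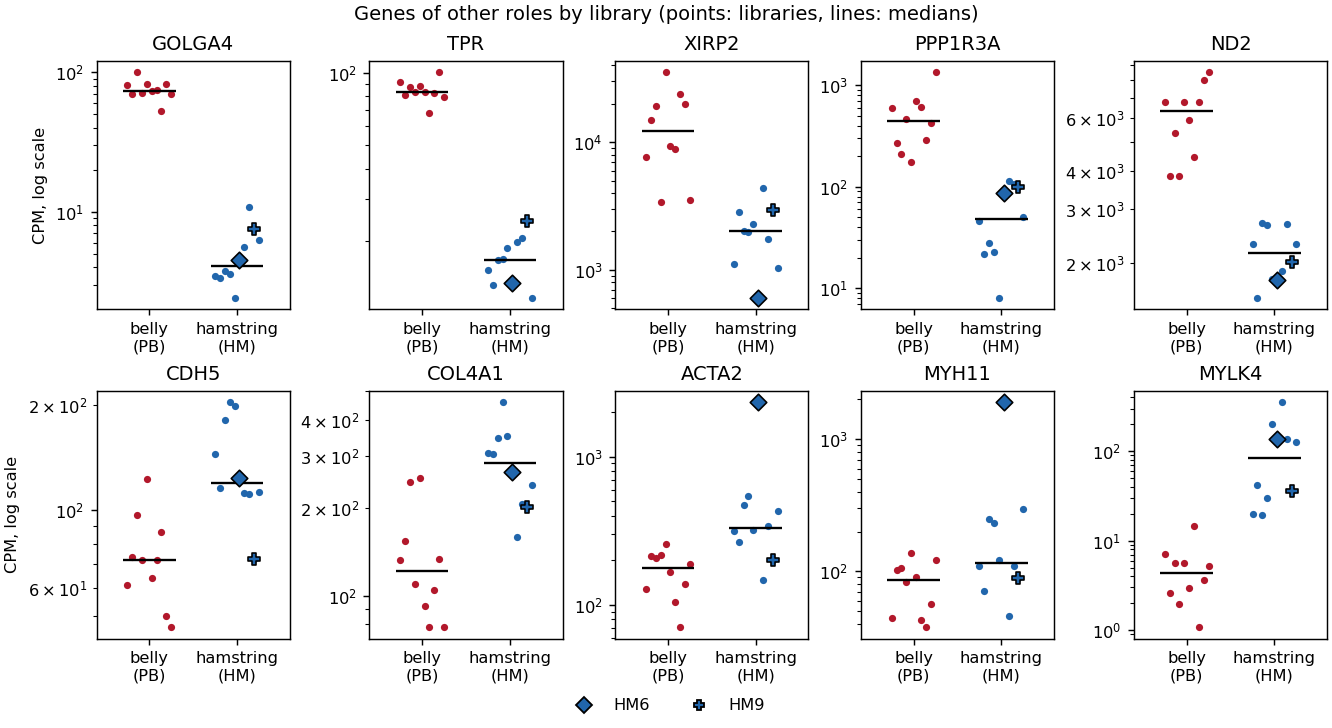
Level of 10 genes of other roles in each library (CPM, log scale, red for PB and blue for HM, black lines at the medians), with HM6 drawn as a diamond and HM9 as a plus. GOLGA4, TPR, PPP1R3A and ND2 are higher in every PB library than in any HM library, MYLK4 is lower in every PB library, XIRP2, CDH5, COL4A1 and ACTA2 overlap, and HM6 is by far the highest library in ACTA2 and MYH11.

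Few genes of slow and fast fibres passed between belly and hamstring. Of 20 slow fibre genes tested, 1 was higher and 1 lower in PB (median log2 change -0.03), and of 20 fast fibre genes likewise 1 and 1 (median 0.09), against 13.5% and 14.1% of all genes. The slow myosin heavy chain MYH7 ranged from 13359 to 36382 CPM in PB (median 27914) and from 7606 to 43554 CPM in HM (median 26039), fully overlapping, a log2 change of 0.13 ± 0.32 (adjusted p = 0.81). The fast myosins MYH4, MYH1 and MYH2 lie in 1 gene model (ENSSSCG00000029441), whose reads cannot be split between them, and this model stood at 0.63 ± 0.23 (adjusted p = 0.0413). That call was kept in 11 of the 20 fits that leave out 1 library (adjusted p up to 0.117), and was lost with the gene length trend removed (0.39, adjusted p = 0.239). PVALB, a calcium buffer of fast fibres, was lower at -2.13 ± 0.61 (adjusted p = 0.00768), but HM9 held 107 CPM, and without it the change was -1.148 (adjusted p = 0.1). The slow fibre calls were CD36, a fatty acid transporter that also belongs to vessels, and SMTNL2, a smoothelin-like protein, lower at -0.97 ± 0.30 (adjusted p = 0.0145).

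Of 33 regulators of fibre type 7 were higher in belly (21.2% beside 13.5% of all genes) and 4 lower (12.1% beside 14.1%). SOX6, a repressor of slow fibre genes, ranged from 15.02 to 65.4 CPM in PB (median 30.3) and from 5.62 to 16.8 CPM in HM (median 10.9), a log2 change of 1.53 ± 0.27 (adjusted p = 4.49e-05). TEAD1, a factor that binds promoters of muscle genes, was higher by 0.84 ± 0.19 (adjusted p = 0.00114) and MEF2A, a myocyte enhancer factor, by 0.81 ± 0.20 (adjusted p = 0.00229). NFATC2, a calcineurin-dependent factor, was lower at -1.38 ± 0.36 (adjusted p = 0.00411). PPARGC1A, the coactivator of mitochondrial growth, did not pass at -0.78 ± 0.65 (adjusted p = 0.395). Its level in PB5 was 518 CPM against a PB median of 42.2, and without PB5 it stood at -1.66 (adjusted p = 0.0429).

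XIRP2 and TRDN were higher in belly and MYLK4 lower. XIRP2, an actin-binding repeat protein of the muscle fibre's cell junctions and Z-discs, ranged from 3412 to 35279 CPM in PB (median 12145) and from 604 to 4397 CPM in HM (median 1997). The ranges met only at their ends, where 2 belly libraries, PB4 and PB10, lay below HM7, and the log2 change was 2.80 ± 0.49 (adjusted p = 4.38e-05). TRDN, triadin, which ties the calcium store protein calsequestrin to the release channel, ranged from 465 to 1716 CPM in PB (median 762) and from 104 to 344 CPM in HM (median 172) with no overlap, a log2 change of 2.21 ± 0.32 (adjusted p = 2.17e-06). In the list of calcium handling 4 of 27 were higher and 4 lower, 14.8% each way and so near the shares of all genes, among them the channel subunit CACNA2D1 at 1.04 ± 0.23 (adjusted p = 0.000932), the channel subunit CACNG1 at -0.82 ± 0.21 (adjusted p = 0.00311) and the calcium pump ATP2A3 at -0.99 ± 0.18 (adjusted p = 5.92e-05). MYLK4, a kinase of the myosin light chain kinase family, went the other way. It ranged from 19.3 to 356 CPM in HM (median 84.4) and from 1.07 to 14.6 CPM in PB (median 4.41), with no overlap, a log2 change of -4.45 ± 0.50 (adjusted p = 2.66e-08). It stood at 4.74 (adjusted p = 9.56e-12) in HM and 0.29 (adjusted p = 0.586) in PB against the mean of LDM and TM.

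Glycogen genes moved in both directions. PPP1R3A, the muscle subunit that brings protein phosphatase 1 to glycogen, ranged from 174 to 1345 CPM in PB (median 443) and from 8.01 to 113 CPM in HM (median 48.1). All belly libraries were above all of hamstring, and the log2 change was 3.12 ± 0.54 (adjusted p = 4.49e-05). GYS1, the muscle glycogen synthase that PPP1R3A helps to activate, was lower at -0.69 ± 0.14 (adjusted p = 0.000207), and PHKG2, a phosphorylase kinase subunit, at -0.67 ± 0.15 (adjusted p = 0.00106). In all 3 of 21 glycogen genes were higher and 3 lower, a share near that of all genes. In glycolysis 1 of 22 was higher (4.55% beside 13.5% of all genes) and 3 lower (13.6% beside 14.1%). The lactate carrier SLC16A1 was lower at -0.80 ± 0.19 (adjusted p = 0.00182) and PGAM1, the phosphoglycerate mutase form found mainly outside muscle fibres, at -1.06 ± 0.19 (adjusted p = 4.92e-05). The exception, PFKFB3, an activator of glycolysis, rested on PB8 at 376 CPM, without which it stood at 0.97 (adjusted p = 0.192).

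Messenger RNA from the mitochondrial genome was higher in belly. Of 12 mitochondrially encoded genes tested 10 were higher (83.3% beside 13.5% of all genes) and 0 lower, with a median log2 change of 1.18. The 13 matched genes together took 12.5% ± 1.96 of the counts in PB and 9.12% ± 1.53 in HM (SD, n = 10 each). ND5, a subunit of complex I, ranged from 3633 to 19908 CPM in PB (median 10318) and from 1801 to 3780.4 CPM in HM (median 2791). They overlapped only at the lowest PB and highest HM libraries, and the log2 change was 2.01 ± 0.25 (adjusted p = 1.26e-07). ND2 of the same complex ranged from 3856 to 8489 CPM in PB (median 6341) and from 1529.7 to 2699 CPM in HM (median 2154) without overlap, a log2 change of 1.48 ± 0.19 (adjusted p = 2.49e-07). ATP6 of the ATP synthase stood at 1.21 ± 0.16 (adjusted p = 4.45e-07) and COX2 of complex IV at 1.16 ± 0.16 (adjusted p = 1.78e-06). The exceptions were COX1 and COX3, the other complex IV subunits, at 0.00 ± 0.14 (adjusted p = 0.985) and 0.16 ± 0.13 (adjusted p = 0.351). Both cuts were also above the mean of LDM and TM in ND2, PB by 2.50 (adjusted p = 7.16e-16) and HM by 1.01 (adjusted p = 5.32e-05).

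Few nuclear genes of the same complexes passed. Of 60 tested 1 was higher (1.67% beside 13.5% of all genes) and 5 lower (8.33% beside 14.1%), with a median of -0.18. Among the lower were COX6A1, the broadly expressed form of a complex IV subunit, at -0.90 ± 0.13 (adjusted p = 1.74e-06) with no overlap and NDUFV3 of complex I at -0.54 ± 0.13 (adjusted p = 0.0018). NDUFS5 of complex I, at -0.30 ± 0.11 (adjusted p = 0.0404), did not pass with mitochondrially encoded genes out of the scaling (-0.22, adjusted p = 0.154). Nor did it pass with the gene length trend removed (-0.16, adjusted p = 0.227). Of 69 mitochondrial ribosome proteins 6 were higher (8.70%) and 7 lower (10.1%), with a median of -0.08. In the citric acid cycle 3 of 33 were higher (9.09%) and 2 lower (6.06%). These shares too lay below those of all genes. DLD, the shared dehydrogenase of the pyruvate and ketoglutarate complexes, was higher by 0.93 ± 0.17 (adjusted p = 6.02e-05) and SUCLA2, a succinyl-CoA ligase subunit, by 0.75 ± 0.15 (adjusted p = 0.000211), while citrate synthase CS was lower at -0.52 ± 0.16 (adjusted p = 0.0135) and the kinase PDK2, which holds back pyruvate use, at -0.59 ± 0.15 (adjusted p = 0.00357).

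In fatty acid uptake and oxidation 6 of 37 genes were higher in belly (16.2%, near the 13.5% of all genes) and 1 lower (2.70% beside 14.1%). CD36 ranged from 205 to 578 CPM in PB (median 419) and from 84.1 to 219.5 CPM in HM (median 185). The groups overlapped only at their ends, and the log2 change was 1.26 ± 0.19 (adjusted p = 4.36e-06). The oxidation enzymes DECR1 and ETFA stood at 0.72 ± 0.17 (adjusted p = 0.00163) and 0.58 ± 0.12 (adjusted p = 0.000397). The lower gene was SLC27A4, a fatty acid transport protein and acyl-CoA synthetase, which ranged from 7.33 to 18.3 CPM in HM (median 10.4) and from 2.56 to 7.05 CPM in PB (median 5.62) with no overlap, at -1.06 ± 0.19 (adjusted p = 8.41e-05). Among lipid synthesis genes 0 of 29 were higher and 7 lower (24.1% beside 14.1% of all genes) with a median of -0.23. The desaturases FADS1 and FADS2 were lower at -0.96 ± 0.25 (adjusted p = 0.00367) and -0.99 ± 0.25 (adjusted p = 0.00325), LPIN1, a phosphatidate phosphatase, at -0.90 ± 0.18 (adjusted p = 0.000249), and ACSS2, which makes acetyl-CoA from acetate, at -0.65 ± 0.16 (adjusted p = 0.00262). FASN, the fatty acid synthase, and SCD, the main desaturase of fat cells, did not pass, at -0.24 ± 0.28 (adjusted p = 0.559) and -0.65 ± 0.38 (adjusted p = 0.206).

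Fat cell markers gave 1 call, and it was not toward belly, a cut known for its fat. Of 16 adipocyte genes tested 0 were higher (beside 13.5% of all genes) and 1 lower (6.25% beside 14.1%). Their median log2 change was 0.22, with 12 of 16 above 0. Adiponectin, ADIPOQ, ranged from 1.64 to 57.0 CPM in PB (median 15.8) and from 0.615 to 62.4 CPM in HM (median 13.9), a log2 change of 0.33 ± 0.57 (adjusted p = 0.708), and leptin, LEP, was too low to test, at no more than 1.61 CPM. The summed level of the 21 matched adipocyte genes ran from 1052 to 2507 CPM in PB (median 1757) and from 976 to 1975 in HM (median 1603). The 1 call, CFD, which encodes the serum protease adipsin, was lower at -0.62 ± 0.17 (adjusted p = 0.00652) and did not pass without HM6 and HM9 (-0.39, adjusted p = 0.0803). In bulk tissue, fewer cells of a type and less RNA per cell cannot be told apart.

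Vessel genes were lower in belly. Of 20 endothelial genes 0 were higher and 8 lower, against 13.5% and 14.1% of all genes. Their median log2 change was -0.41, beside -0.05 over all genes tested. CDH5, the cadherin of endothelial junctions, ranged from 46.3 to 123 CPM in PB (median 72.2) and from 72.5 to 203 CPM in HM (median 119.7), a log2 change of -0.88 ± 0.17 (adjusted p = 0.000186). PECAM1 of the same junctions was lower at -0.84 ± 0.21 (adjusted p = 0.00246), the clotting protein VWF at -0.62 ± 0.17 (adjusted p = 0.00547) and the adhesion protein ESAM at -0.65 ± 0.17 (adjusted p = 0.00384). The ranges overlapped for all 20 genes. The summed level of the endothelial list ran from 440 to 1072 CPM in PB and from 505 to 1293 in HM. Counts of the list kept to 1 direction without HM6 and HM9, with 0 higher and 6 lower.

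Of 15 genes in the smooth muscle and pericyte list 0 were higher and 9 lower (60.0% beside 14.1% of all genes), a median of -1.03. HM6 stood far above the other libraries in several of them. ACTA2, the actin of smooth muscle, ranged from 70.5 to 256 CPM in PB (median 177) and from 147 to 2338 CPM in HM (median 331), where HM6 stood at 2338 CPM and the next library at 547. Its log2 change was -1.67 ± 0.35 (adjusted p = 0.000422), and -0.99 (adjusted p = 0.00347) without HM6 and HM9. TAGLN, an actin-binding protein of smooth muscle, stood at -1.34 ± 0.29 (adjusted p = 0.000626), and at -0.94 without those libraries, and MYLK, the smooth muscle myosin kinase, at -1.52 ± 0.32 (adjusted p = 0.000412) and -0.77. NOTCH3, a receptor of pericytes and arterial smooth muscle, stood at -1.03 ± 0.23 (adjusted p = 0.000953) and -0.87. MYH11, the smooth muscle myosin, named after its values were seen, was at 1913 CPM in HM6 and 45.9 to 299 in the other hamstring libraries. It stood at -1.98 ± 0.48 (adjusted p = 0.0021), and did not pass in the fit without HM6 (-0.81, adjusted p = 0.071) or without both HM6 and HM9 (-0.83, adjusted p = 0.0724). Without both, 1 gene of the list was higher and 7 lower. The summed level of the 16 matched genes did not go with these calls, at 10306 to 23374 CPM in PB (median 14763) and 10464 to 19699 in HM (median 12626). Most of it came from DES, the desmin gene, which muscle fibres express too, at 0.21 ± 0.16 (adjusted p = 0.344). ACTA2 shares long stretches with the skeletal actin ACTA1, so reads that the authors' counting could not place uniquely make its level uncertain.

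Genes of the matrix around vessels and fibres were also lower in belly more often than higher. Of 38 collagen and matrix genes 3 were higher (7.89% beside 13.5% of all genes) and 13 lower (34.2% beside 14.1%), with a median of -0.33. The basement membrane collagen COL4A1 ranged from 78.0 to 252 CPM in PB (median 121) and from 159 to 459.9 CPM in HM (median 285), a log2 change of -1.04 ± 0.23 (adjusted p = 0.000805). COL4A2, its partner chain, stood at -0.99 ± 0.22 (adjusted p = 0.000941), perlecan HSPG2 at -0.75 ± 0.17 (adjusted p = 0.00106) and COL15A1, a collagen next to basement membranes, at -0.79 ± 0.19 (adjusted p = 0.00164). The ranges of COL4A1 overlapped, and the part of vessel content in these matrix values was not tested. The fibrillar collagen COL1A1 did not pass, at 0.09 ± 0.39 (adjusted p = 0.886). A pair that passed in the other direction, the cartilage collagen COL11A1 at 2.30 ± 0.65 (adjusted p = 0.00749) and the tendon and cornea proteoglycan KERA at 2.88 ± 0.82 (adjusted p = 0.008), rested on PB1, the library with 2 tissue labels, at 28.8 and 22.1 CPM. PB7 was also high, at 18.6 and 6.63 CPM, where the other 8 belly libraries held at most 1.73 and 2.90, and without PB7 both passed, at 1.85 (adjusted p = 0.029) and 2.73 (adjusted p = 0.0149). Without PB1 they stood at 1.40 (adjusted p = 0.0759) and 1.62 (adjusted p = 0.105), and 0 of the fibrillar collagen and matrix list were higher and 16 lower. Of 11 tendon genes 3 were higher (27.3% beside 13.5% of all genes), and 1 without PB1. That gene was CILP, a cartilage matrix protein, which in the fit with PB1 stood at 1.42 ± 0.40 (adjusted p = 0.00664). The tendon list summed to 259 to 1493 CPM in PB and 198 to 6119 in HM, where HM5 was highest. Of 16 genes of fibro-adipogenic progenitors, the cells that make matrix and fat in muscle, 1 was higher and 1 lower. These shares are 6.25% each way, beside 13.5% and 14.1% of all genes.

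Of 10 Schwann cell and nerve genes 0 were higher and 2 lower (20% beside 14.1% of all genes), with a median log2 change of -0.85 and 9 of 10 below 0. The calls were SOX10, a factor of Schwann cells, at -1.49 ± 0.47 (adjusted p = 0.0154) and the myelin gene PMP22 at -0.56 ± 0.21 (adjusted p = 0.0457). Both passed narrowly: SOX10 stood at adjusted p = 0.0556 without HM6, and PMP22 kept its call in 8 of 20 fits that leave out 1 library. The summed level of the list ran from 83.5 to 171 CPM in PB and from 95.3 to 302 in HM, where HM6 was highest. Of 13 neuromuscular junction genes 0 were higher and 3 lower (23.1% beside 14.1% of all genes). Among the 3 were the agrin receptor LRP4 at -0.78 ± 0.20 (adjusted p = 0.00287) and CHRNE, the adult acetylcholine receptor subunit, at -1.02 ± 0.34 (adjusted p = 0.0215). CHRNE did not pass without HM1 (-0.74, adjusted p = 0.0844). Of 15 myeloid, 3 lymphoid, 1 red blood cell, 5 skin and 2 mesothelium genes tested, 0 passed. The myeloid list summed to 302 to 815 CPM in PB (median 338) and 321 to 549 in HM (median 501). The highest library was PB8, which had 32.3 CPM of the leukocyte phosphatase PTPRC where the other 9 belly libraries had 1.70 to 5.73. The gene did not pass, at 0.88 ± 0.44 (adjusted p = 0.136).

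Satellite cell and myogenic factors are genes of muscle stem cells and their descendants. Calls among the 15 tested were split, 3 higher and 3 lower, against 13.5% and 14.1% of all genes. Their median log2 change was -0.18, with 10 of 15 below 0, beside -0.05 over all genes tested. Of 4 developmental and regenerating myosins and fusion genes tested, 0 were higher and 1 was lower, too few to set beside those shares. MET, the receptor that wakes satellite cells, was higher by 1.45 ± 0.31 (adjusted p = 0.00062) and the cadherin CDH15 by 0.67 ± 0.17 (adjusted p = 0.0032). The growth factor receptor FGFR4 was lower at -1.45 ± 0.32 (adjusted p = 0.000754) and the adhesion protein NCAM1, which marks satellite cells and denervated fibres, at -1.23 ± 0.33 (adjusted p = 0.00478). MSTN, myostatin, the brake on muscle growth, was higher by 1.05 ± 0.39 (adjusted p = 0.041), a call kept in 9 of the 20 fits that leave out 1 library.

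Clock genes were among the lists with calls in 1 direction, 4 of 19 higher (21.1% beside 13.5%) and 0 lower. RORA, a nuclear receptor that drives the clock gene BMAL1, ranged from 18.5 to 70.0 CPM in PB (median 45.5) and from 5.82 to 22.2 CPM in HM (median 11.5), a log2 change of 1.90 ± 0.32 (adjusted p = 2.35e-05). NR1D2, its repressing counterpart, stood at 0.87 ± 0.19 (adjusted p = 0.000574) and CLOCK at 0.64 ± 0.17 (adjusted p = 0.00399). The groups overlapped in RORA only between the lowest PB and the highest HM libraries.

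Genes of protein breakdown moved in both directions, 6 of 28 higher (21.4% beside 13.5% of all genes) and 4 lower (14.3% beside 14.1%). CAST, calpastatin, the calpain inhibitor studied for meat tenderness, ranged from 141 to 295 CPM in PB (median 190.4) and from 78.9 to 133 CPM in HM (median 114). The groups did not overlap, and the log2 change was 0.89 ± 0.17 (adjusted p = 0.000116). The ubiquitin ligase NEDD4 was higher by 2.13 ± 0.42 (adjusted p = 0.000209) and FBXO30, a ligase of muscle wasting, by 0.59 ± 0.13 (adjusted p = 0.000792), while the lysosomal protease CTSD was lower at -0.63 ± 0.16 (adjusted p = 0.00226). Of 35 proteasome genes 4 were higher (11.4%) and 5 lower (14.3%), near the shares of all genes. PSME4, the proteasome activator PA200, was higher by 0.98 ± 0.22 (adjusted p = 0.000807), and PSMA3 by 0.46 ± 0.11 (adjusted p = 0.00226).

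Ribosomal proteins of the cytosol were lower more often than higher, by small amounts (median -0.14). Of 62 tested 13 were lower (21.0% beside 14.1% of all genes) and 5 higher (8.06% beside 13.5%). RPL3, a core protein of the large subunit, was lower at -0.65 ± 0.18 (adjusted p = 0.00567), while RPL7 and RPS6 were higher by 0.55 ± 0.10 (adjusted p = 5.04e-05) and 0.36 ± 0.08 (adjusted p = 0.00115). The direction of the list turned with the scaling: with mitochondrially encoded genes out of the scaling 8 of the cytosolic ribosomal proteins were higher and 2 lower, and with the gene length trend removed 7 and 2. Many ribosomal protein genes have near-identical copies in the genome, so how the authors' counting treated shared reads adds to the error of these small changes.

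In the lists of heat shock and immediate early genes 2 of 19 (10.5%) and 2 of 24 (8.33%) were lower and 0 higher. Both shares lay below the 14.1% of all genes. The median log2 change of the heat shock list was -0.18, with 12 of 19 below 0. In the immediate early list it was -0.39, with 19 of 24 below 0, beside -0.05 over all genes tested. The lens and muscle chaperone CRYAB was lower at -1.15 ± 0.32 (adjusted p = 0.00656), HSPB3, a small chaperone of muscle, at -0.96 ± 0.28 (adjusted p = 0.00907), and the matrix signal CCN2 at -1.05 ± 0.28 (adjusted p = 0.0043). Of 18 creatine, myoglobin and iron genes 3 were higher (16.7% beside 13.5% of all genes) and 4 lower (22.2% beside 14.1%). The haem synthesis enzyme ALAS1 was lower at -0.88 ± 0.18 (adjusted p = 0.000315) and the creatine carrier SLC6A8 at -0.61 ± 0.14 (adjusted p = 0.00126), while HJV, hemojuvelin, a regulator of iron balance, was higher by 0.77 ± 0.17 (adjusted p = 0.00096). Of 25 channel genes 1 was higher and 3 lower. ANO5, a membrane protein whose loss causes muscular dystrophy, was higher by 1.02 ± 0.22 (adjusted p = 0.000574), and the cation channel TRPV4 was lower at -1.79 ± 0.51 (adjusted p = 0.00708).

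**Figure D5:**
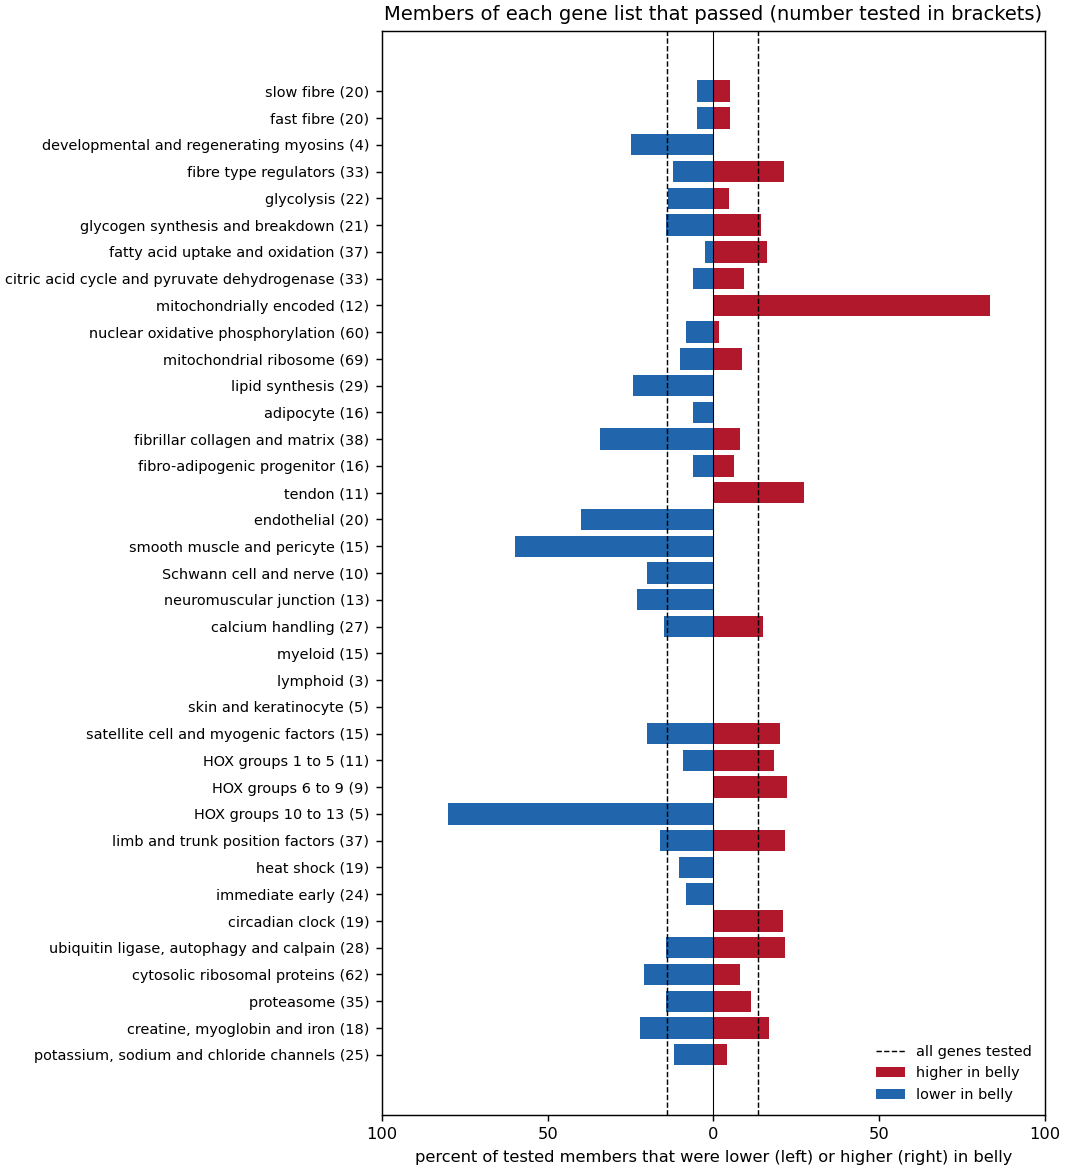
Share of the tested members of each gene list that passed, lower in belly to the left in blue and higher to the right in red, with the number tested in brackets and dashed lines at the shares of all genes tested (14.1% and 13.5%). The mitochondrially encoded list reaches 83.3% to the right and the smooth muscle and pericyte list 60.0% to the left, and the slow and fast fibre lists stay at 5.0% on both sides.

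The remaining genes with the largest differences were of mixed roles. SLC6A6, the taurine carrier, ranged from 20.8 to 148 CPM in HM (median 48.2) and from 2.77 to 26.4 CPM in PB (median 5.20), a log2 change of -2.68 ± 0.54 (adjusted p = 0.000309). CERS6, a ceramide synthase, was lower at -2.09 ± 0.43 (adjusted p = 0.000325), the polysialic acid enzyme ST8SIA2 at -2.56 ± 0.58 (adjusted p = 0.000975), the small GTPase RASD2 at -2.06 ± 0.36 (adjusted p = 4.69e-05) and the zinc carrier SLC30A2 at -2.30 ± 0.62 (adjusted p = 0.00491). ATP6V0D2, a proton pump subunit, LRRC38, a potassium channel subunit, and SLC3A1, an amino acid carrier subunit, were lower by 2.04 to 2.64 on the log2 scale at levels of at most 5.67 CPM. NPR3, the clearance receptor of natriuretic peptides, was higher by 2.68 ± 0.65 (adjusted p = 0.002), where PB7 and PB10 stood at 113 and 107 CPM and the other 8 at 4.37 to 16.3. MTCL3, a microtubule crosslinking protein, was higher by 2.74 ± 0.55 (adjusted p = 0.000249) at no more than 2.78 CPM.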

How the data were processed

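The deposited table holds the authors' raw read counts per gene beside FPKM values, with 40 libraries as columns. Per the labels' protocols, RNA was extracted with Trizol and libraries were made with a stranded KAPA kit. Among tools, the submitters' processing notes list HTSeq 0.9.1, HISAT2 2.0.5 and cutadapt 1.15, and Sscrofa11.1 as the build, in which all coordinates are printed. The strand setting of the counting was not given in the sources used here, so reads of overlapping, antisense or near-identical genes are uncertain. The deposited FPKM equalled the count scaled by length and depth for 100% of values within 0.001 and was not tested. No row lacked a gene and 0 columns lacked a sample. Symbols came from the table (14877 genes), or from its gene ID (658), Entrez ID (375) or position (333), with 5036 left unnamed.

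Counts were fitted for all 40 libraries with edgeR 4.0.16 (R 4.3.3; TMM scaling, low counts filtered by filterByExpr, quasi-likelihood test, Benjamini-Hochberg adjustment), with limma 3.58.1 and DESeq2 1.42.0 in alternatives and Python 3.11.15, pandas 2.3.3, scipy 1.17.1 and matplotlib 3.10.9 for summaries. The scripts were tested on simulated data. No 2 libraries of a cut agreed within sampling noise. Genes named were the 15 highest and 15 lowest log2 changes among genes with a symbol, a mean of at least 1 CPM in the higher cut and a call in the full fit and in each of the 20 fits that leave out 1 library, up to 4 passing members of each of 39 lists, 18 genes whatever their result (17 matched; MB was not), and the 3 genes most like IRX3, SIM1, HOXA13 and HOXA11. Other genes, such as HOXA7, COX1, COX3, MYH11 and the further members of lists, were named after their values were seen. The members and lists were chosen with earlier results of these data known. Alternatives changed the scaling, filter, test, libraries and length correction, or added the library number as a block. No genome or sequence was used here. Results for some genes are not reported here.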

Additional observations from a re-analysis of the deposited data

Results flagged for a closer look

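A library was marked where it stood apart from the other 9 of its cut by Dixon's rule on log2 of CPM plus 0.5. Of 293 groups of 10 libraries tested, 31 were marked, where chance marks about 1 in 20 (5.0%). HM6 and PB8 were marked most often. No cause was tested.

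HM6 was the highest hamstring library in SIM1 (1.73 CPM, the nearest library at 0.198), PITX1 (1.43, nearest 0.486), IFT74 (1.17, nearest 0.694), and in 3 smooth muscle genes, MYLK (357, nearest 73.4), ACTA2 (2338, nearest 547) and TAGLN (577, nearest 199). It was the lowest in SIM2 (0, nearest 3.69), SMTNL2 (114, nearest 430.0), CACNG1 (41.6, nearest 122) and PSMD13 (57.1, nearest 75.2). By its whole profile this library lay nearest to trapezius.

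PB8 was the highest belly library in PFKFB3 (376 CPM, nearest 56.1), the leukocyte marker PTPRC (32.3, nearest 5.73), MET (48.2, nearest 15.5) and ATP6V0D2 (1.57, nearest 0.328). It was the lowest in the metabolic genes ETFA (59.3, nearest 94.2), DLD (105, nearest 167), NDUFS5 (29.0, nearest 39.5) and LPIN1 (218, nearest 296), in the pericyte receptor NOTCH3 (4.04, nearest 22.9) and in SMTNL2 (65.3, nearest 222).

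HM5 was the lowest hamstring library in HOXA11 (4.07 CPM, nearest 6.26), HOXA5 (8.33, nearest 17.2) and HJV (63.5, nearest 119), and the highest in PGAM1 (40.5, nearest 26.7). PB2 was the highest belly library in ATP2A3 (11.5, nearest 6.85) and NCAM1 (20.8, nearest 9.04), and PB5 in ESAM (28.3, nearest 17.0) and PPARGC1A (518, nearest 120.3). MEF2A was highest in PB10 (302 CPM, nearest 194), NBN in HM1 (8.68, nearest 4.64) and CKM in HM8 (52215, nearest 31874).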

How the results depend on the processing

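Genes lower in PB numbered 1053 without HM6 and HM9, and those lower by 2-fold or more 197 without both and also without HM6 alone. Over the fits that leave out 1 library, genes lower by 2-fold or more ran from 197 to 374. Genes higher and lower numbered 1944 and 1136 (63.1% higher) with mitochondrially encoded genes out of the scaling, 2127 and 1198 (64.0%) without HM9, and 1985 and 2297 with limma-voom. Direction turned in 3 genes that did not pass: MYH7 (-0.15 with the length trend removed, -0.0078 with the block and that correction, -0.0068 without HM6 and HM9), COL1A1 (-0.031 with the block, -0.0045 with the block and that correction, -0.37 without PB1, and -0.37 to 0.45 over the fits that leave out 1 library) and PTPRC (-0.032 without PB8, and -0.032 to 1.02 over those fits). Over the 12 alternatives other than leaving out 1 library 1683 values kept direction and side of the threshold, 63 lost the call, 3 gained it and 5 turned. Over the 20 fits that leave out 1 library these numbers were 2807, 129, 1 and 3. These tallies cover only the genes picked by the rules for naming, not all genes tested. The named genes with the highest and lowest log2 changes were chosen for a call in each of these 20 fits, so they could not lose it there. How stable the calls of other genes are cannot be read from these tallies. Same-numbered libraries correlated by -0.13 to 0.49 (median 0.27, over 0.1 in 8 of 10 pairs), against a median of -0.04 for different numbers. Of 10 PB libraries 4 correlated best with their own number, and of 10 HM libraries 5. By the medians, same-numbered libraries were thus more alike than others. No label ties a number to a pig, so the main fit did not pair libraries. Its p-values take no account of this likeness, and whether same-numbered libraries share a pig was not tested. With the replicate block 1812 genes were higher and 2031 lower, HOXA10 passed (-4.51, adjusted p = 0.00564), and PFKFB3 (1.48, adjusted p = 0.0949), COL11A1 (1.25, adjusted p = 0.131) and KERA (2.18, adjusted p = 0.0682) did not. Low counts limit TBX4 and the high-numbered HOXD genes.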
